A study of Mus musculus with 39 samples.

Results

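The genes described here encode enzymes that chemically modify drugs, plant compounds, hormones and other small lipophilic molecules. They are the cytochrome P450 families Cyp1 to Cyp4, the glutathione S-transferases (Gst), the UDP-glucuronosyltransferases (Ugt) and the sulfotransferases (Sult). Members were chosen by gene symbol alone, and 121 of the 29411 gene names on the array matched. Of these, 3 belonged to Cyp1, 47 to Cyp2, 8 to Cyp3, 20 to Cyp4, 20 to Gst, 12 to Ugt and 11 to Sult. The statistics cover the 83 members that were well above background (the scanner software's call that a spot is brighter than its local background) on at least 6 of the 39 arrays. The other 38 are counted and described, but not tested.

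The samples were subcutaneous adipose tissue of C57BL/6J mice on one of 5 diets. LFC was the low-fat control diet with 10% of calories from fat, and HFC was the high-fat control diet with 60%, which also had more sucrose. HF5, HF20 and HF75 were the high-fat diet with 5, 20 or 75 µg of KAL-1, which the labels call an ethano-botanical formulation. The mice were weaned at 3 to 4 weeks of age, and 5 of the 30 animals of a group were taken every 3 weeks. HFC was sampled from Day 1 to Week 18 (11 arrays), LFC from Day 6 to Week 18 (10 arrays), and each KAL-1 dose from Week 3 to Week 18 (6 arrays), with a single array for each diet and time point. By the study's methods weeks were counted from Day 14, so Day 14 and Week 0 stand for the same time on the diet. They are separate arrays and are kept as separate points here, so the 10 labelled time points shared by LFC and HFC hold 9 distinct times. The series text speaks of 3 biological replicates, and whether an array held 1 mouse or a pool is not given in the sources used here. In the fits of LFC and HFC alone, the spread is therefore how much their difference varied between time points. The comparisons of diets over Week 3 to Week 18, with those of the KAL-1 doses, share a fit of all 5 diets. The spread there is pooled over all 5 diets, so it is not that of the named diets alone. The spread behind the change per week is the scatter of single arrays around the trend. An SD beside a mean is the spread of the arrays of a diet, which mixes animals, age and time on the diet. Alternatives named below are other normalizations, background corrections, weights and blocks, and fits without 1 time point.

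Cytochrome P450 enzymes of families 1 to 3 insert oxygen into foreign compounds, and those of family 4 hydroxylate fatty acids. Gst enzymes attach glutathione, Ugt enzymes attach glucuronic acid and Sult enzymes attach sulfate, which makes the products easier to excrete. The liver holds most of this capacity, and many Cyp2, Cyp3 and Ugt2 genes are typical of hepatocytes, whereas Gst genes are active in most tissues. In adipose tissue these enzymes also handle fatty acid peroxidation products and steroid hormones, of which fat is a store.

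All values are levels on a log2 scale, on which 0 is the 75th percentile of the array, so a difference of 1 is a factor of 2. Levels of different genes come from different probes and are not set against each other. The 75th percentile itself lay between 107.9 and 1285 intensity units, and between 49.3% and 87.8% of spots were well above background, so the arrays differed in how low a level they could measure. The 8 mature adipocyte markers were well above background on every array, with a mean level from 2.51 to 5.91. Skeletal muscle markers were highest on HF75 Week 3 (mean level 7.60), HFC Day 1 (6.25), HF5 Week 12 (6.12), HFC Day 6 (5.26) and LFC Day 6 (4.43), against medians from -1.21 to -0.58 in the 5 diets. Means of the epidermis list (-7.01 to -3.42) and the simple epithelium list (-7.01 to -1.21) were low throughout, those of the lymphocyte list ran from -5.11 to 1.66, macrophage from -2.14 to 2.42, endothelium from 0.46 to 4.24 and red blood cell from 0.04 to 5.39. The HF20 Week 15 array had 4936 spots marked as outliers, against at most 474 on any other array, and 18 members had no value there. In the authors' processed table, the Week 12 columns labelled HF5 and HF20 matched the scanner file of the other label (r = 0.999 against 0.66), so which of these arrays is which is not settled. The labels of the array files were kept, and values with the pair exchanged are given beside most HF5, HF20 and dose-order results.

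Several Ugt1a symbols are measured by separate probes, and their sequences are shown because the diet result with the smallest p rests on a probe of this locus. The Ugt1a genes join different first exons to shared later exons. The first 30 bases of each 60-base probe read as follows, 5′ to 3′.
Ugt1a6b: ttgtgccggaatttgatgaaaaccaaagta
Ugt1a@: tgatgggtcctctaagagagtacaggaaca
Ugt1a1: tttaatcaagatccttttctgctgcgcgtg
Ugt1a9: tatctacattgaagaacatgcattttgctc
The probe named Ugt1a6b carries accessions of 8 genes in RefSeq (Ugt1a1, Ugt1a2, Ugt1a5, Ugt1a6a, Ugt1a6b, Ugt1a7c, Ugt1a9 and Ugt1a10), so its level cannot be assigned to a single one of them. The probe named Ugt1a@ matched Ugt1a6b alone. The probe named Ugt1a6b was well above background on all 39 arrays, Ugt1a@ on 9, Ugt1a1 on 3 and Ugt1a9 on none. The value called Ugt1a6b below is that of the shared probe.

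Receptors that sense foreign compounds act through short DNA motifs, and stretches of 4 member promoters that hold such a motif are shown with the motif in capitals, from the RefSeq promoter table (GRCm38.p6). The core motif of the aryl hydrocarbon receptor, Ahr, is GCGTG, which in Cyp1b1 lies on the other strand, and the core used by Nfe2l2, which responds to oxidative stress, is TGACNNNGC.
Cyp1a1, chr9:57697547-57697576, plus strand: tcagataaggagGCGTGgccaacagacaca
Cyp1b1, chr17:79715120-79715149, minus strand: cgtcccgcccctCACGCcccaccccctaag
Gsta3, chr1:21240454-21240483, plus strand: aactcaggcaTGACATTGCatttttcttct
Gstm7, chr3:107931724-107931753, minus strand: tctgaagaccTGACAAAGCgaagccaatcc
Searched on both strands of the 250 bases before the start site, GCGTG was found in 19 of the 98 members with a promoter entry (19.4%) and in 28.2% of all 32851 promoters in the table. TGACNNNGC was found in 5 of the 98 (5.1%) and in 10.2% of all promoters. A match is a description of the letters and not evidence of binding.

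The families differed in how much of them was measurable in this fat depot. Of the members, 27 were well above background on all 39 arrays. These were 14 of 20 Gst genes, 5 of 47 Cyp2, 5 of 20 Cyp4, 2 of 11 Sult, 1 of 12 Ugt and none of the 11 Cyp1 and Cyp3 genes. The filter of 6 arrays was passed by 19 of 20 Gst, 14 of 20 Cyp4, 8 of 11 Sult, 31 of 47 Cyp2, 2 of 3 Cyp1, 4 of 8 Cyp3 and 5 of 12 Ugt genes. Of the 38 that did not pass, 32 were well above background on HFC Day 14 and 4 on no array.

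**Figure D1:**
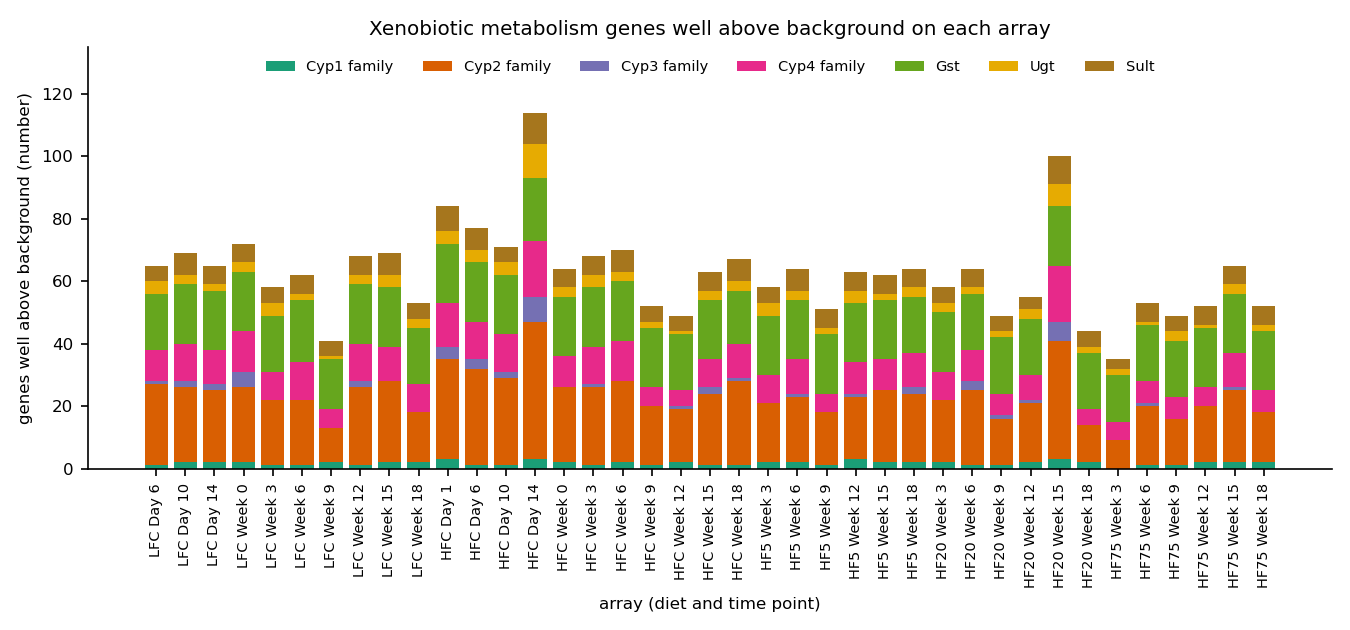
Number of members well above background on each of the 39 arrays as stacked bars by family, with arrays on the horizontal axis in order of diet and time point. HFC Day 14 stands out with 114 of 121 members, against 35 (HF75 Week 3) to 100 (HF20 Week 15) elsewhere. Of all spots on these arrays, 84.1%, 49.3% and 87.8% were well above background.

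Some enzymes were steady over the whole study and others moved over many doublings. Gstp1, the pi-class transferase, had the smallest SD among the passing members (0.44 over 39 arrays), while the median SD of the 83 was 1.11. Gstm1, a mu-class transferase, ran from 5.44 to 6.64 in LFC (median 5.99, 10 arrays) and from 5.27 to 7.18 in HFC (median 5.93, 10 arrays), and was the only member with saturated spots, on 9 arrays. The largest SDs were those of Sult1e1 (3.37), Ugt2b37 (2.16), Cyp1a1 (2.03), Cyp2e1 (2.0) and Cyp2c40 (1.97). Cyp2c40 was well above background on 6 of the 39 arrays, and Ugt2b37 and Cyp1a1 were so on only part of them, as given below. The SDs of Ugt2b37, Cyp1a1 and Cyp2c40 therefore include levels that were not well above background. Sult1e1 inactivates oestrogens by sulfation, and Cyp2e1 oxidises ethanol, acetone and fatty acids.

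Many Cyp2, Cyp3 and Ugt2 members had their highest level on HFC Day 14. Of the 121 members, 38 did so, namely 21 Cyp2, all 8 Cyp3, 4 Cyp4, 4 Ugt and 1 Sult gene, and no Gst gene. The share of all gene names that were highest on this array is not given here. Of all its spots, 84.1% were well above background, so the count alone does not set the members apart. The median gap to the next array was 1.94 and the largest 5.75, with 27 of the 38 gaps over 1. These are the genes picked because they peak there, so the gaps are a description. The level of Ugt2b35 was -0.18, with -5.93 on the next array (HF75 Week 3) and a median of -7.50 on the others. Cyp3a41a stood at 1.01 with -3.68 next, Cyp3a44 at -0.54 with -5.31 next and Cyp2j5, an arachidonic acid epoxygenase, at 0.18 with -3.73 next. Cyp2d26 stood at 2.02 with -0.85 next, on LFC Week 18, and -4.73 on LFC Day 14. Cyp2c70, which makes the muricholic acids of mouse bile, stood at 1.39 with -1.65 next, and Cyp3a11, the main drug-oxidising Cyp3a enzyme of mouse liver, at 0.26 with -2.59 next.

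Liver markers were high on the same array. All 11 measured liver markers were well above background on HFC Day 14, and their mean level was 2.61, with the next highest mean at -1.60 on LFC Week 18. Alb, the gene of serum albumin, stood at 5.62 on HFC Day 14, 0.86 on LFC Week 18 and -2.83 on LFC Day 14. The part of liver RNA in these levels was not tested. HFC Day 14 is a single array, and each comparison it enters was also fitted without Day 14. Values without it are given for the members' medians and Ugt1a6b and lie within the ranges over the alternatives given for other members.

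**Figure D2:**
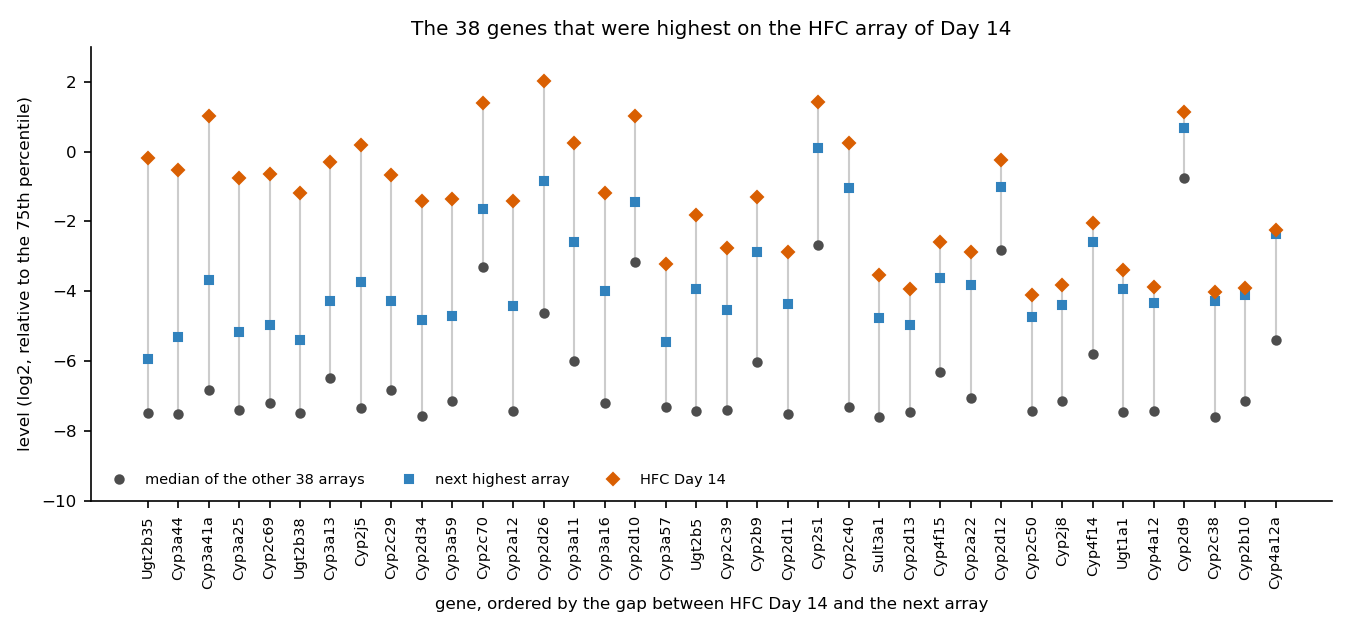
Levels (log2, 0 = 75th percentile of the array) of the 38 members that were highest on HFC Day 14 (diamonds), with the next highest array (squares) and the median of the other 38 arrays (circles). Ugt2b35 has the widest gap, 5.75, between HFC Day 14 and the next array, but was well above background on only 2 arrays.

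Across the 39 arrays, several members followed the markers of particular cell types. Each of the 83 members was set against the mean level of 5 marker lists (415 relations, 100000 permutations of the arrays, two-sided, adjusted over all 415 by the Benjamini-Hochberg method), and 97 relations had an adjusted p under 0.05. These were 24 with muscle (7 positive), 23 with endothelium (16 positive), 21 with liver (20 positive), 17 with macrophage (16 positive) and 12 with adipocyte markers (12 positive). In whole tissue, more cells of a type and more RNA per cell cannot be told apart. Over the 5 lists, relations of the same size were about as frequent among all genes. Correlations at least as large as the smallest one called for each list made up 20.6% of those of all 22714 names, against 23.4% called for the members. The shares of members and of all names were 28.9% and 32.0% for muscle, 27.7% and 30.5% for endothelium, 20.5% and 26.4% for macrophage, 25.3% and 5.11% for liver and 14.5% and 9.3% for adipocyte markers. All levels on an array share its scaling, and arrays of successive times are not independent, so the p-values measure these arrays only.

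Cyp2e1, Gstz1 and Gsta3 followed the adipocyte markers. Cyp2e1 had r = 0.87 (Spearman's rho 0.88), 0.84 without the 2 arrays farthest from the median, 0.85 within time points and 0.80 to 0.94 within the 5 diets. Gstz1, which also isomerises maleylacetoacetate in tyrosine breakdown, had r = 0.87 (rho 0.89) and 0.88 without those 2 arrays. Gsta3, an alpha-class transferase, had r = 0.85 (rho 0.84), 0.82 without them and 0.83 to 0.96 within diets. Each had an adjusted permutation p of 0.000277, from an unadjusted p of 1e-05, the smallest that these permutations give. The members most alike to Cyp2e1 were Gstz1 (r = 0.91) and Gsta3 (0.89), then Gstk1 (0.67), the mitochondrial and peroxisomal kappa-class enzyme.

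Cyp4b1 and Sult1a1 followed the endothelial markers. Cyp4b1, which hydroxylates fatty acids and activates some protoxins, had r = 0.91 (rho 0.88), 0.91 without the 2 farthest arrays and 0.89 to 0.98 within diets. Sult1a1, the phenol sulfotransferase, had r = 0.83 (rho 0.85), 0.76 without them and 0.65 to 0.94 within diets. The members most like Cyp4b1 were Sult1a1 (0.91) and the theta-class transferases Gstt3 (0.84) and Gstt2 (0.81). Gstp1 ran the other way against the endothelial list (r = -0.65).

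Cyp1b1, which hydroxylates oestradiol and is a target of Ahr, followed the macrophage markers (r = 0.81, rho 0.73, 0.69 without the 2 farthest arrays, 0.71 to 0.99 within diets). Its lowest levels were on HFC Day 1 (-4.93) and HF75 Week 3 (-4.19), which also had the lowest macrophage means. Both arrays also had the highest muscle means (6.25 and 7.60) and the lowest endothelial means (0.80 and 0.46). The part of each list in the Cyp1b1 levels was not tested. Gstt1 (0.65) and Cyp4v3, a fatty acid hydroxylase (0.62), followed the macrophage markers more loosely, and without the 2 farthest arrays Cyp4v3 had r = 0.36. With muscle markers, Cyp2j9 (r = -0.69), Gstt3 (-0.68), Cyp2s1 (-0.68) and Sult1e1 (-0.60) ran opposite and Gstk1 (0.59) in the same direction. The relations of Cyp2d26 (r = 0.85) and Cyp2c70 (0.73) with liver markers came to 0.49 and 0.30 without the 2 farthest arrays and so rest largely on these.

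**Figure D3:**
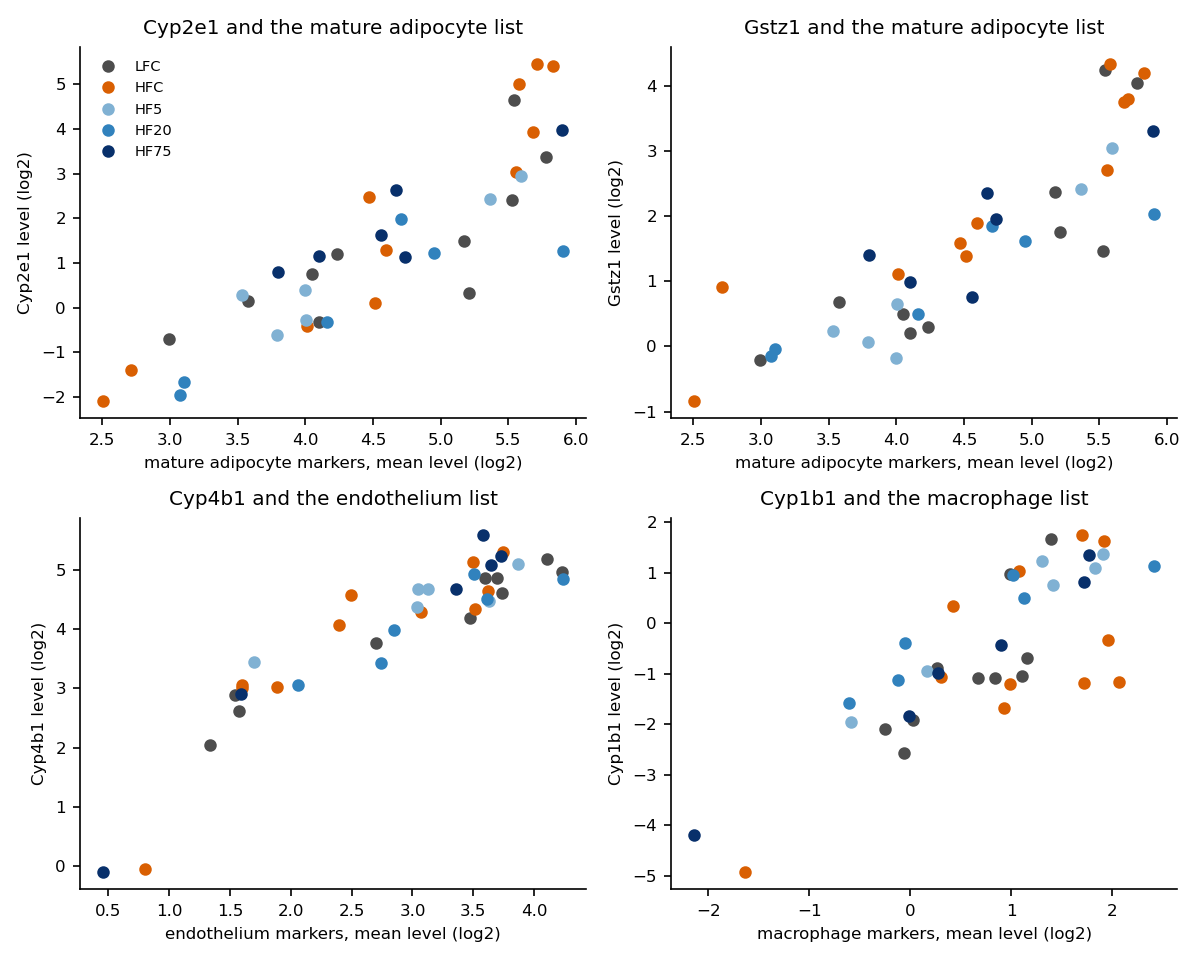
Level of a member against the mean level of a marker list on each of the 39 arrays (both log2), points coloured by diet. Cyp2e1 (r = 0.87) and Gstz1 (0.87) against adipocyte, Cyp4b1 against endothelial (0.91) and Cyp1b1 against macrophage markers (0.81) slope upwards.

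Which of these enzymes differ between the high-fat and the low-fat diet was asked over the 10 time points that have both. None of the 83 members passed an adjusted p of 0.05 in limma (lowest adjusted p 0.81), nor did any of the 22714 gene names tested (0%). At an unadjusted p under 0.05 there were 3 members (3.61%), 1 higher and 2 lower in HFC, against 5.85% of all genes. The median difference of the members was 0.13, and that of all genes -0.06. Without Day 14 the members' median was -0.02. Of the 83, 49 were higher in HFC, and 60 with quantile normalization but 23 with normexp background correction, so the direction of the whole set depends on the background correction.

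Ugt1a6b had the smallest p. In LFC its level was 3.40, -1.29, -2.46 and 0.31 on Day 6, Day 10, Day 14 and Week 0, and 1.63, 2.36, 2.09, 4.01, 1.32 and 1.47 from Week 3 to Week 18. In HFC it was 4.00, -0.24, 0.85 and 1.75, then 4.08, 2.45, 3.39, 2.93, 2.38 and 1.71. HFC was higher at 9 of 10 time points, all but Week 12, and the ranges of the diets overlapped. The means were 2.33 ± 1.37 and 1.29 ± 1.99 (SD, n = 10 arrays each), a difference of 1.04 (SE 0.36, limma unadjusted p = 0.0144, adjusted p = 0.81), or 0.79 without Day 14.

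The other members named by the smallest p were lower in HFC. Cyp4a31, of the fatty acid omega-hydroxylase family, differed by -0.54 (SE 0.24, limma unadjusted p = 0.0433) and was lower at 8 of 10 time points (-0.67 to -0.39 over the alternatives), and its accessions in RefSeq also include Cyp4a10. Sult1c1 ran from -4.26 to -2.57 in LFC (median -3.33) and from -6.34 to -2.71 in HFC (median -4.13), with overlapping ranges and a difference of -0.82 (SE 0.37, limma unadjusted p = 0.0482), or -1.01 to -0.41 over the alternatives, with the smallest size under array quality weights. Neither passed the adjusted test.

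The other members named here had differences between LFC and HFC that did not pass the test. Cyp2e1 had the largest difference among members well above background on all arrays of both diets, 1.09 (SE 0.90, limma adjusted p = 0.84), with 7 of 10 time points higher. It was 0.67 without Week 3, 1.77 without Week 12 (limma unadjusted p = 0.0373) and 1.92 with the scan day as block. It ran from -0.70 to 4.66 in LFC (median 0.97) and from -2.09 to 5.46 in HFC (median 2.76), so its spread within a diet was wider than the difference. Sult4a1, a brain-type sulfotransferase, had the smallest, -0.23 (SE 0.20, -0.55 to -0.12 over the alternatives). Gstt1 differed by 0.54 (SE 0.27), Gstz1 by 0.86 (SE 0.57), Gsto1, which reduces dehydroascorbate, by 0.43 (SE 0.35), Gsta3 by 0.43 (SE 0.73) and Gsta4, which clears the lipid peroxidation aldehyde hydroxynonenal, by 0.22 (SE 0.53). The alternatives moved these values widely, from 0.23 to 0.73 for Gstt1, 0.55 to 1.5 for Gstz1, 0.28 to 0.73 for Gsto1, 0.03 to 1.38 for Gsta3 and -0.14 to 0.83 for Gsta4. The lowest values were those without Week 3 (Gstz1, Gsto1), without Day 14 (Gsta3) and with normexp (Gstt1, Gsta4), and the highest those with the scan day as block. Gstk1 (0.15), Gstp1 (-0.06), Sult1a1 (0.22) and Cyp4b1 (0.14) lay near 0, and so did Gstm1 (0.14), but its spots were saturated on 9 of the 39 arrays, where only a lower bound was measured. Over the alternatives these 5 stayed between -0.12 and 0.55, with Gstk1, Gstp1 and Cyp4b1 on either side of 0. Cyp1b1 differed by 0.69 (SE 0.52, 0.03 to 1.08 over the alternatives) and Cyp2f2, the naphthalene-oxidising enzyme of mouse airways, by 0.97 (SE 0.74, 0.28 to 1.82). Among the 19 Gst genes 14 were higher in HFC, 16 with quantile normalization and 11 with normexp.

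Whether the difference between HFC and LFC itself changed from the early samples (Day 6 to Week 0) to the late ones (Week 3 to Week 18) was tested as an interaction. No member and no gene passed (0%), with lowest adjusted p of members 1.0 in limma, and 0 members against 2.54% of all genes had an unadjusted p under 0.05. The members' median was -0.29 (all genes -0.06), and 0.05 without Day 14. Cyp2b13 and Ugt2a3, which had small p-values here, were well above background on none of the 4 early LFC arrays, so no size is given. Cyp2j9 was the third, with a change of 0.78 (SE 0.40, limma unadjusted p = 0.0772). Its early levels were 0.16, 1.00, 1.18 and 1.28 in LFC and -0.23, 0.52, 0.10 and 1.05 in HFC, with LFC the higher at each time point.

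From Week 3 to Week 18, where all 5 diets were sampled, HFC and LFC were compared again within the fit of 30 arrays. No member and no gene passed (0%, lowest adjusted p of members 0.84 in limma), and 1 member (1.2%) against 5.13% of all genes had an unadjusted p under 0.05. That member was Cyp4v3. From Week 3 to Week 18 its level was -1.45, -0.77, -1.49, 0.82, -0.63 and -1.57 in LFC and 0.81, 0.92, -0.19, -0.47, 0.18 and -0.92 in HFC. HFC was higher at 5 of 6 time points, with Week 12 of LFC well above the other LFC arrays, and the ranges overlapped. The means were 0.06 ± 0.72 and -0.85 ± 0.91 (SD, n = 6 arrays), a difference of 0.90 (SE 0.40, limma unadjusted p = 0.0332, adjusted p = 0.84). Over the alternatives Cyp4v3 differed by 0.57 (normexp) to 1.34 (without Week 12), and by 0.63 without Week 3. Sult1c1 differed by -1.05 (SE 0.51, -0.70 without Week 9) and was lower in 5 of 6, and Ugt2b37 was well above background on 3 of 6 LFC arrays and 1 of 6 HFC arrays, too few for a size.

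The KAL-1 groups were each compared with HFC over the same 6 time points, which asks whether the formulation shifts these enzymes on a high-fat diet. The 3 comparisons share the 6 HFC arrays, so their values are not independent of each other or of the comparison with LFC. In the main fits no member passed the adjusted test at any dose in limma, and neither did any of the 22714 genes (0% at each dose). At an unadjusted p under 0.05 there were 2 members for HF5 (2.41%, against 1.32% of all genes), 6 for HF20 (7.23%, against 4.69%) and 6 for HF75 (7.23%, against 4.86%). Of these, 2, 5 and 5 were lower with KAL-1, while among all genes with such a p 154 of 300, 805 of 1065 and 460 of 1104 were higher. The members' medians were -0.22, -0.02 and -0.18, and those of all genes 0.00, 0.08 and 0.02. With normexp the members' medians were -0.0013, 1.37 and 0.49, and 63 of 83 members were higher in both HF20 and HF75, so the direction of the whole set depends on the background correction here too. With normexp 53 members passed the adjusted test in HF20, 49 of them higher, where many of all genes also passed (shares given below).

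The shared Ugt1a probe, named Ugt1a6b, had a lower mean in each KAL-1 group than in HFC. Its level in HFC is given above and ran from 1.71 to 4.08. In HF5 it was 0.77, 2.53, 2.24, 2.89, 0.94 and 1.89 from Week 3 to Week 18, and in HF20 it was 1.40, 1.80, 1.80 and 1.00 up to Week 12 and 1.02 at Week 18, with Week 15 left out as an outlier spot. In HF75 it was -0.98, 1.91, 2.78, 2.08, -1.53 and 0.24. HF75 was below HFC at all 6 time points and HF20 at all 5 it had, and both overlapped the HFC range. The HF75 mean of 0.75 ± 1.77 was below the HFC mean of 2.82 ± 0.84 (SD, n = 6 arrays each) by 2.07 on the log2 scale (SE 0.49, limma unadjusted p = 0.00038, adjusted p = 0.89). Without Week 3 the difference was -1.47. HF20 differed by -1.64 (SE 0.50, limma unadjusted p = 0.00359), and by -1.25 with the Week 12 pair exchanged. With normexp HF20 differed by -2.05 (limma adjusted p = 0.0116), a setting under which many of all genes passed. On the HF75 Week 3 array the muscle list was at its highest mean (7.60), and the macrophage (-2.14) and endothelial (0.46) lists at their lowest. Ugt1a6b had r = 0.46 with the macrophage list, and 0.24 without the 2 farthest arrays. Their part in the result was not tested.

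Cyp4v3 had the next smallest p at HF75. Its level ran from -1.32 to -0.41 in HF5 (median -0.76), from -1.09 to -0.35 in HF20 (median -0.91) and in HF75 was -3.42, -0.56, -0.29, -0.46, -0.80 and -1.38. HF5 and HF20 were below HFC at all 6 time points and HF75 at 5 of 6, and all 3 ranges overlapped that of HFC. The differences were -0.90 (HF5, SE 0.40, limma unadjusted p = 0.0337), -0.86 (HF20) and -1.21 (HF75, SE 0.40, limma unadjusted p = 0.00598). With the Week 12 pair exchanged, both HF5 and HF20 differed by -0.88. With normexp HF20 differed by -0.48. Without Week 3 the HF75 difference was -0.60.

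**Figure D4:**
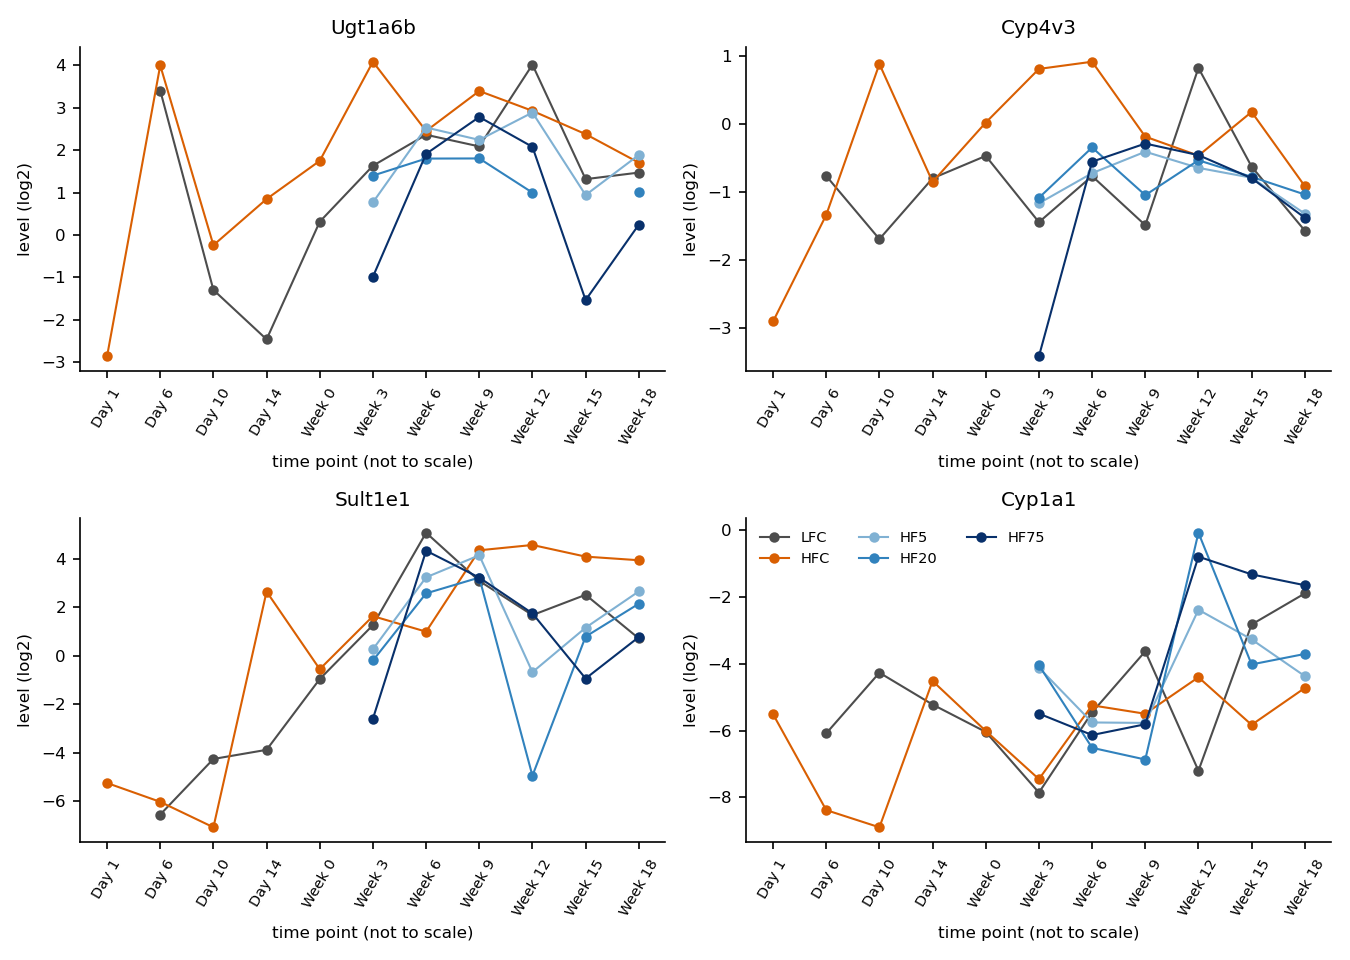
Levels (log2, 0 = 75th percentile of the array) of Ugt1a6b, Cyp4v3, Sult1e1 and Cyp1a1 by time point, a line per diet and a single array per point. Ugt1a6b in HF75 lies below HFC at every time point from Week 3 to Week 18, and Sult1e1 in LFC is lower up to Week 0 than at any later time point.

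Sult1e1, the oestrogen sulfotransferase, varied most of all. In HFC it was 1.64, 1.00, 4.36, 4.57, 4.09 and 3.94 from Week 3 to Week 18. In HF20 it was -0.19, 2.58, 3.23, -4.94, 0.80 and 2.15, and in HF75 it was -2.59, 4.34, 3.23, 1.75, -0.93 and 0.78. Each dose was above HFC at Week 6 only. HF20 differed by -2.66 (SE 1.00, limma unadjusted p = 0.0143, adjusted p = 0.96), by -1.29 without Week 12 and by -1.95 with the Week 12 pair exchanged. With normexp it differed by -2.33 (limma adjusted p = 0.0155), a setting under which many of all genes passed. HF75 differed by -2.17 (limma unadjusted p = 0.0413), and HF5 by -1.46 (limma unadjusted p = 0.158), or by -2.18 with the pair exchanged (limma unadjusted p = 0.0465) but -0.71 without Week 12 (limma unadjusted p = 0.405). Without Week 6 the differences were -2.21 in HF5, -3.51 in HF20 and -3.27 in HF75. Among members well above background on all arrays of both groups, this was the lowest difference at HF75 and the highest was that of Gstp1 (0.37, SE 0.27), which was 0.10 without Week 3, where the HF75 level of Gstp1 was 7.11, and 0.04 with normexp.

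Most glutathione S-transferases had a lower mean in HF5 and HF20 than in HFC. Of 19 Gst genes, 18 were lower in HF5 (18 with quantile normalization, 17 with normexp), 17 in HF20 (18 and 12) and 12 in HF75 (14 and 9), with medians of -0.46, -0.41 and -0.21. With the Week 12 pair exchanged 19 were lower in HF5 and 18 in HF20. With the labels kept, the medians of all genes were 0.00 in HF5, 0.08 in HF20 and 0.02 in HF75. The shares of all genes that were lower in HF20 and HF75 are not given here, and all doses share the HFC arrays. Gstm2 was 3.73, 4.22, 3.99, 3.68, 3.87 and 4.41 in HFC and 3.37, 3.68, 4.13, 3.03, 3.00 and 3.48 in HF5, lower at all time points but Week 9, with overlapping ranges. Its difference was -0.54 (SE 0.22, limma unadjusted p = 0.0205, adjusted p = 1.0), and -0.55 with the pair exchanged. Gstm7, whose promoter stretch is printed above, was lower by 0.80 in HF5 (SE 0.41) and by 1.03 in HF20 (SE 0.41, limma unadjusted p = 0.0210) on the log2 scale, in both at 5 of 6 time points, but with normexp the differences were -0.38 and 0.39. With the pair exchanged the differences of Gstm7 were -0.71 and -1.12. Gsta3 differed by -1.42 in HF20 (SE 0.75) and 0.30 in HF75, and Gstz1 by -1.11 (SE 0.67) and -0.29. With the Week 12 pair exchanged the HF20 values were -1.17 and -0.94, and without Week 6 they were -0.63 and -0.54. Over the alternatives the HF75 values ran from -0.13 to 0.91 for Gsta3 and from -0.73 to 0.28 for Gstz1, so neither has a settled direction at this dose. These followed the adipocyte markers, as given above, and the part of that was not tested. Gstk1, Gsto1 and Gstm1, the last with saturated spots, differed by at most 0.47 in size at any dose, but in HF20 by up to -0.85, -0.86 and -0.68 under an alternative. In HF5, Gstk1 differed by -0.83 without Week 12.

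Cyp1a1, the Ahr target that oxidises polycyclic aromatic hydrocarbons, had a higher mean in HF75. It was -5.49, -6.13, -5.81, -0.80, -1.33 and -1.65 in HF75 and -7.45, -5.24, -5.50, -4.40, -5.83 and -4.72 in HFC. HF75 was higher at Week 3 and from Week 12 on, and the ranges overlapped. The difference was 1.99 (SE 0.93, limma unadjusted p = 0.0438), with 3 of 6 HF75 and 2 of 6 HFC arrays above background for this probe. The other levels were not well above background, so the size is not a measured fold. Cyp2c55, an arachidonic acid oxidising enzyme, was -3.30, -3.87, -3.15, -2.33, -2.30 and -2.02 in HFC and -5.82, -4.79, -2.37, -2.71, -5.29 and -5.62 in HF75. It was lower in HF75 at 5 of 6 time points, by 1.60 on the log2 scale (SE 0.58, limma unadjusted p = 0.0105), but by 0.04 with normexp. No HF75 array had Cyp2b9 well above background, so it has no size. Cyp1b1 differed by -1.19 (SE 0.70, -1.83 to -0.72 over the alternatives), Cyp4b1 by -0.50 (SE 0.59), Cyp2e1 by 0.04 (SE 1.06) and Sult1a1 by -0.18 (SE 0.44) at this dose. Without Week 3, and so without the HF75 array on which the muscle list was highest, Cyp4b1 differed by 0.03, Cyp2e1 by 0.89 and Sult1a1 by 0.15, so no direction is given for these 3.

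The mean of the 3 doses against HFC gave no call for any member or any other gene (0%). At an unadjusted p under 0.05 there were 6 members (7.23%, against 4.31% of all genes). Ugt1a6b differed by -1.55 (SE 0.41, limma unadjusted p = 0.0009, adjusted p = 1.0), Cyp4v3 by -0.99 (limma unadjusted p = 0.0058) and Sult1e1 by -2.10 (limma unadjusted p = 0.0175). Without Week 3 Cyp4v3 differed by -0.65, and without Week 12 Sult1e1 by -1.35.

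Along the order HFC, HF5, HF20 and HF75, no member and no gene passed (0%), and 4 members (4.82%, against 5.15% of all genes) had an unadjusted p under 0.05, all with a downward slope. Ugt1a6b changed by -0.69 per step (SE 0.16, limma unadjusted p = 0.000222, adjusted p = 0.88), with -0.54 to -0.78 over the alternatives tried. Its means were 2.82, 1.88, 1.40 and 0.75 in that order. With the Week 12 pair exchanged the HF5 and HF20 means were 1.56 and 1.78, which turns their order, and the slope was -0.62. Cyp2c55 changed by -0.56 per step (limma unadjusted p = 0.00542), but by 0.07 with normexp, which turns the direction, and by -0.59 with the pair exchanged. Cyp4v3 changed by -0.36 (limma unadjusted p = 0.00922), also with the pair exchanged, but by -0.18 without Week 3 (limma unadjusted p = 0.0986) and -0.22 with normexp. Sult1e1 changed by -0.77 (limma unadjusted p = 0.0234), by -0.63 with the pair exchanged (limma unadjusted p = 0.0669) and by -1.11 to -0.62 over the alternatives.

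**Figure D5:**
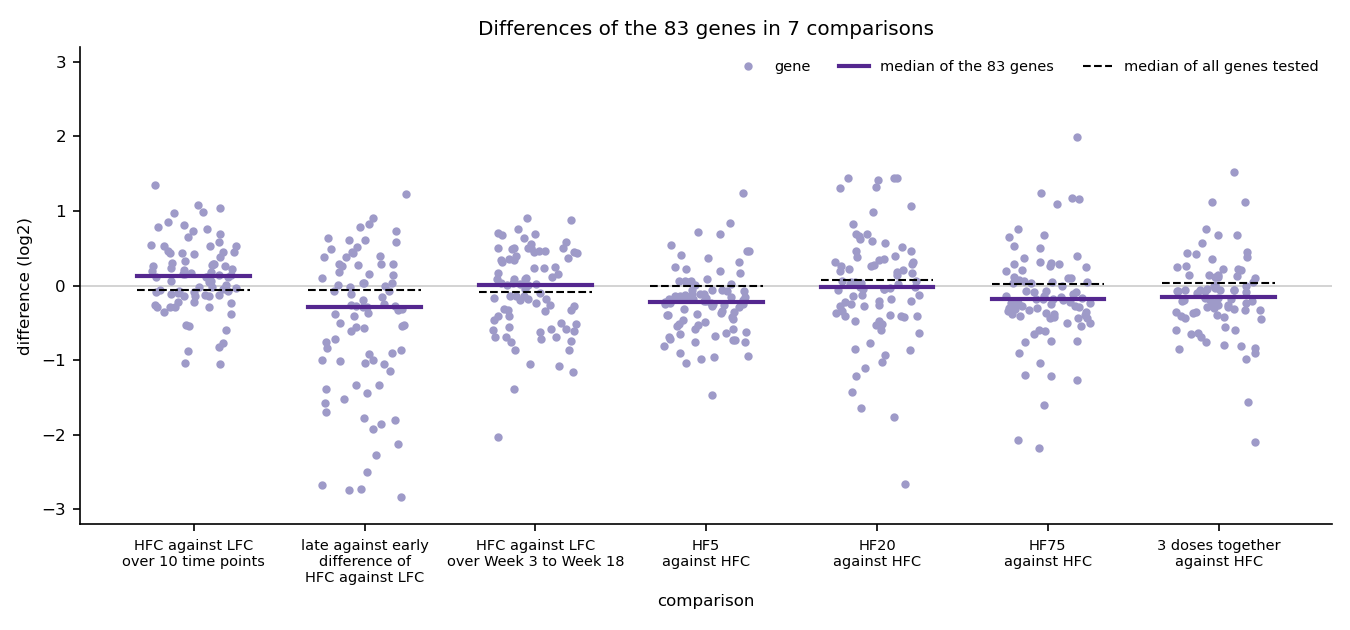
Log2 differences of the 83 members in 7 comparisons, a point per gene, with the members' median as a purple bar and the median of all genes dashed. The members' medians lie within 0.29 of 0 in each comparison shown.

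The change per week over Week 3 to Week 18, with the diets as covariates, was the only comparison in which any gene passed the adjusted test, with 0.0792% of 22714, and none of the members did. At an unadjusted p under 0.05 there were 11 members (13.3%, 9 upward and 2 downward), against 15.5% of all genes. Age, time on the diet and scan batches cannot be told apart here. The fit counts arrays of the same week as independent, although they share the week and mostly the scan day, so its p-values may be too small. Cyp1a1 gained 0.21 per week (SE 0.06, limma unadjusted p = 0.00109, adjusted p = 0.14). In LFC it was -7.85, -5.45, -3.63, -7.20, -2.83 and -1.90 from Week 3 to Week 18, and the highest of all arrays was HF20 Week 12 at -0.08. The probe was well above background on 17 of those 30 arrays, and the slope was 0.05 with normexp. Sult6b1 (0.10 per week, adjusted p = 0.15) and Cyp2b9 (0.11, adjusted p = 0.21) also had small p-values in limma, and both slopes were 0.01 with normexp. Gstm4, a mu-class transferase, changed by -0.10 per week (limma unadjusted p = 0.0111) and Gstm7 by -0.08, or -0.03 (Gstm4, normexp) and -0.03 (Gstm7, without Week 6). Without Week 3, 12 members passed the adjusted test, among them Gstm4 (-0.20 per week, adjusted p = 0.00453), Gstm7 (-0.17), Gstm3 and Gstm5 downward and Cyp1a1 (0.24) upward. These were 14.5% of the 83 members, against 12.7% (2880) of all 22714 names. Of the 31 Cyp2 genes 27 had an upward slope, with 18 under quantile normalization and 21 with normexp. Their median slope was 0.03 per week, against 0.01 for all genes. Of the 3522 genes with a limma unadjusted p under 0.05, 2216 also went upward.

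Sult1e1 separated the early from the late samples in LFC. It was -6.54, -4.25, -3.87 and -0.95 from Day 6 to Week 0 and 1.27, 5.08, 3.09, 1.68, 2.52 and 0.72 from Week 3 to Week 18, with no overlap. In HFC it was -5.24, -6.02 and -7.07 on Day 1, Day 6 and Day 10, 2.65 on Day 14 and -0.55 at Week 0, so Day 14 lay within the late range of 1.00 to 4.57. The members most like it over the 39 arrays were Cyp1b1 (r = 0.72), Sult5a1 (0.71) and Gstm3 (0.67). The mean level of the muscle list was 4.43, 1.12, -1.51 and -2.67 in LFC from Day 6 to Week 0, and 6.25, 5.26, 3.21, -2.95 and -1.03 in HFC from Day 1 to Week 0, and Sult1e1 had r = -0.60 with this list over the 39 arrays. Its part in these levels was not tested. No test was made of early against late levels.

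Of 60 further genes of the same pathway (receptors, electron partners of P450, other oxidising and conjugating enzymes, cofactor supply and transporters), 59 were on the array and 56 passed the filter, and none passed the adjusted test in any comparison. Nnmt, which methylates nicotinamide and pyridines, was higher in HFC than LFC at 9 of 10 time points, with means of 5.01 ± 0.97 and 3.70 ± 0.97 (SD, n = 10 arrays each), a difference of 1.32 (SE 0.30, limma unadjusted p = 0.000878). Its ranges overlapped, and over Week 3 to Week 18 its difference was 1.23 (limma unadjusted p = 0.00781). Of 17 other oxidising and hydrolysing enzymes 15 were higher in HFC over the 10 time points (median 0.30), with 15 under quantile normalization and 14 with normexp, while 56.8% of all genes were lower. Abcb1a, the P-glycoprotein efflux pump, had the smallest p for late against early (1.39, limma unadjusted p = 0.0489), or 0.18 with normexp.

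With KAL-1, Por, the reductase that passes electrons to every microsomal P450, was lower in HF20 than HFC at all 6 time points. Its means were 3.61 ± 0.36 and 4.55 ± 0.77 (SD, n = 6 arrays), a difference of -0.94 (SE 0.39, limma unadjusted p = 0.0228), or -0.79 with the Week 12 pair exchanged, -0.61 without Week 3 (limma unadjusted p = 0.0645) and -1.62 with normexp. Tpmt, which methylates thiopurines, differed by -1.07 in HF5 (limma unadjusted p = 0.0248), or -0.90 with the pair exchanged and -0.66 with normexp, and Aox1, the aldehyde oxidase, by -1.09 over the 3 doses together (limma unadjusted p = 0.0211), or -0.66 without Week 3 (limma unadjusted p = 0.126). All 9 other conjugation enzymes were lower in HF5 (median -0.60) and over the 3 doses together (median -0.49), with 9 and 9 under quantile normalization and 8 and 6 with normexp. Of all 22714 genes, 11350 and 10381 (45.7%) were lower in these comparisons, 53.6% and 57.8% under quantile normalization and 37.7% and 35.2% with normexp. Of the same 9 conjugation enzymes, 7 were lower and 2 higher both in HF20 (median -0.52) and in HF75 (median -0.33). The 4 electron partners were lower in HF5, HF75 and the 3 doses together, also under quantile normalization, and with normexp 3 of 4 in HF5 and 4 of 4 in the others. In HF20, 3 of the 4 were lower and 1 higher. Keap1, which holds Nfe2l2 inactive, was higher in HF75 at 5 of 6 time points by 0.80 (limma unadjusted p = 0.00835), with 0.25 per step of dose (0.12 with normexp) and -0.05 per week.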

How the data were processed

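Total RNA of mouse subcutaneous adipose tissue was hybridised to 39 Agilent 1-colour arrays. Per the file headers, spot intensity came from Feature Extraction 10.5.1.1 (the submitters' processing notes give 9.1), background-subtracted and detrended within the array and not normalized between arrays. Each spot also has 0 or 1 calls (well above background, saturated, outlier). The deposited table holds the authors' log2 ratios to LFC of the matching time and was used only to check labels. Week 9 files hold intensities rounded to 3 significant digits, and gene names came from the Day 1 file.

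The processed intensity of 43803 non-control spots (40628 probes) was log2-transformed, and the array's own 75th percentile was then subtracted. Outlier spots were left out, and each gene name took its brightest probe. The 121 members had 166 probes, and 82 had 1. Accessions of 114 members matched RefSeq, and the probes of 9 list more than 1 gene (among them Cyp2a4 with Cyp2a5, Gsta1 with Gm10639 and Gstp1 with Gstp2), which cannot be told apart. Arrays, not reads, limit the precision.

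Differences were fitted with limma 3.58.1 (lmFit, eBayes) in R 4.3.3 over all 22714 names that passed the filter, with the time point as a block (for the change per week, diet and week number and no block), two-sided, with Benjamini-Hochberg adjustment and a threshold of 0.05. The fits were tested on simulated data. Relations used Python 3.11.15 and SciPy 1.17.1. Arrays lay on 36 slides and 14 scan days, with 3 time points over more than 1 scan day. Members without a call on any array of a group have no size. Named were 15 fixed genes, the 3 members with the smallest p in each comparison, the 5 with the largest SD, the extremes of HFC against LFC and HF75 against HFC and, per comparison, the pathway gene with the smallest p. Other members were named after their values were seen. Members, lists and rules were chosen with earlier results of these data known. The 25 alternatives covered normalization, background correction, filters, probe choice, weights, blocks, each time point left out and the arrays in doubt. Those without the HF20 Week 15 array were added after seeing the data.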

Additional observations from a re-analysis of the deposited data

Results flagged for a closer look

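Of 120 groups of 4 to 10 arrays of the 30 named genes, 7 held an array far from the rest of its diet, where chance gives about 1 in 20 groups. Of these 7, 4 were on HF75 Week 3, the array with the highest muscle list (7.60) and the lowest macrophage list (-2.14), and the part of these in the levels was not tested. Gstp1 stood at 7.11 there, with 5.62 (Week 9) as the next highest HF75 array. Cyp2j9 stood at -2.01 with 0.53 as the next lowest, and Cyp4v3 at -3.42 with -1.38 next. Cyp2c40, an arachidonic acid oxidising enzyme whose accessions also include Cyp2c68, stood at -1.03 with -6.50 as the next highest. Cyp2f2 on HF5 Week 6 stood at -5.78 with -2.16 (Week 3) as the next lowest. Cyp4v3 on LFC Week 12 stood at 0.82 with -0.47 (Week 0) as the next highest LFC array. Sult6b1 on HF75 Week 9 stood at -6.81, not well above background there, with -5.02 as the next lowest.

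HFC Day 1 has no LFC array of the same day and entered no comparison. Gstp1 stood at 6.01 on it, above all 10 LFC arrays, of which the highest was 5.80 (Week 12). The muscle list was also high on HFC Day 1 (6.25).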

How the results depend on the processing

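Over the 25 alternatives, 176 of 180 recomputed counts of members passing the adjusted test were 0. For HF20 against HFC, 53 members passed with normexp background correction (63.9%, 49 higher, median 1.37), where 9928 of all genes did (43.7%) and the median of all genes moved from 0.08 to 0.52. When the HF20 Week 15 array was also left out, 54 members (65.1%, 50 higher, median 1.40) and 9907 genes (43.6%) passed, with 0.57 as the median of all genes. For the change per week, 1 member (1.2%) against 1.83% of all genes passed with array quality weights (Gstm7, -0.13 per week, limma adjusted p = 0.0379), and leaving out a time point gave 0 to 12, with 12 (14.5%, against 12.7% of all genes) without Week 3. The cause was not tested.

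Of 527 recomputed gene differences 515 kept their direction and side of the threshold, 7 gained a call and 5 reversed. With normexp, without and with the HF20 Week 15 array left out, Gstm7 in HF20 reversed to 0.39 and 0.50 (from -1.03), and Cyp2c55 along the dose order to 0.072 and 0.10 (from -0.56). Cyp2b13, late against early, turned from below 0 to a fitted 0.0094 with array quality weights, but 0 of the 4 early LFC arrays measured its probe above background, so neither fitted value is a measured size. The gains were Ugt1a6b (-2.05 with normexp, both ways) and Sult1e1 (-2.33 and -2.37) in HF20, and Cyp1a1, Sult6b1 and Cyp2b9 per week without Week 3. Over the alternatives Cyp4v3 against HFC ran from -1.45 to -0.60 in HF75 and Ugt1a6b from -2.38 to -1.47.

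Quantile normalization and normexp moved the split of higher against lower members by more than 10 points. In HF20, 42 of 83 were lower, against 60 and 20, and in HF75 54, against 63 and 20. For the 3 doses together 57 were lower, against 70 and 22. Medians of all genes under normexp were 0.27 in HF75, 0.26 for the 3 doses together and -0.28 for HFC against LFC over Week 3 to Week 18. Without the replicate block of the time point, 0 members passed in each of the 8 blocked comparisons, and Ugt1a6b in HF20 differed by -1.42. The labels' replicate numbers only follow the order of deposition. The slide could not be fitted as a block in the 20-array comparisons. Signal over background limits members with few spots well above it. Cyp1a1 was so on 17 of 30 arrays, and the slopes of Cyp1a1, Cyp2b9 and Sult6b1 with normexp were 0.05, 0.01 and 0.01 per week. The cause of that was not tested.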
